A study of Saccharomyces cerevisiae with 15 samples.

Results

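Serine synthesis and serine breakdown were followed through 8 genes of *Saccharomyces cerevisiae*: *SER3*, *SER33*, *SER1* and *SER2* of the synthesis pathway, *SRG1*, a non-coding RNA that is transcribed across the start of *SER3*, *GLY1*, and the breakdown gene *CHA1* with its activator *CHA4*. The genes were taken by symbol (*SRG1* by its row name) from strand-specific RNA sequencing tables. All 8 had 1 row among the 5712 transcripts of the sense table and 5 had a row among the 5122 of the antisense table. 5 strains were grown in rich YPAD medium to mid-log phase, with 3 independent cultures, and so 3 libraries, per strain. They were *jhd2Δ*, which lacks the H3K4 demethylase Jhd2, *set1Δ*, which lacks the H3K4 methyltransferase Set1, a strain overexpressing Flag-tagged *SET1* and a strain overexpressing Flag-tagged *SET1-G990E*, a hyperactive form of Set1, and the WT control that they were all set against. Both *SET1* transgenes were driven by the constitutive *ADH1* promoter and integrated at *URA3* in cells that keep their own *SET1*. All strains, WT included, are Mat a with *lys2*, *his3* and *ura3* mutations, lack both chromosomal histone H2A-H2B gene pairs (hta1-htb1 and hta2-htb2) and live on *HTA1-HTB1* from a CEN HIS3 plasmid. The transgene strains also carry the *URA3* marker, which WT and both deletions lack, so the marker and the transgene cannot be told apart. In both deletions a KanMX cassette replaces the deleted gene. WT and the transgene strains lack it, so the cassette and the deletion cannot be told apart either.

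In yeast, serine is made from the glycolytic intermediate 3-phosphoglycerate. Ser3 and its paralog Ser33 oxidize it, Ser1 transfers an amino group to the product, and Ser2 removes the phosphate. *SER3* is a textbook case of repression by transcription: when serine is plentiful, *SRG1* is transcribed from upstream into the *SER3* promoter, and nucleosomes held there by that transcription keep *SER3* low. Cha1 breaks serine and threonine down by deamination, and its gene is induced by these amino acids through the zinc cluster activator Cha4. Gly1 splits threonine into glycine and acetaldehyde and so feeds the pool of glycine that exchanges with serine.

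*SER3* (YER081W) lies at chromosome V, 322686 to 324095, on the plus strand, and *SRG1* at chromosome V, 322212 to 322762, on the same strand (R64/sacCer3, as the files give them). *SRG1* begins 474 bases before the *SER3* coding sequence and runs 77 bases into it, a stretch equal to 14.0% of *SRG1* and 5.46% of *SER3*. The junction, chrV:322626-322762, is printed from the reference genome because reads from it can belong to either RNA, and the capitals mark the bases annotated to both:
SRG1 end and SER3 start: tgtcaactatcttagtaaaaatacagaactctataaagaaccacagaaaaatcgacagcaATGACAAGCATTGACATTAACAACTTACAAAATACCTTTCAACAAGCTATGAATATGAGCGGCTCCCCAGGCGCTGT
The deposited lengths of both rows include the shared bases.

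*SER33* (YIL074C, chromosome IX, 221081 to 222490, minus strand) is the only other gene for the first step. Its 1410 coding bases are 82.4% identical to those of *SER3*, and the encoded proteins, of 469 residues each, are 90.8% identical. The first 90 coding bases differ at 38 positions, and the capitals mark the differences between chrV:322686-322775 and the minus strand of chrIX:222401-222490:
SER3 first coding bases: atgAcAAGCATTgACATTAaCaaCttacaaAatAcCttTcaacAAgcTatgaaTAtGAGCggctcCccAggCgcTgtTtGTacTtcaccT
SER33 first coding bases: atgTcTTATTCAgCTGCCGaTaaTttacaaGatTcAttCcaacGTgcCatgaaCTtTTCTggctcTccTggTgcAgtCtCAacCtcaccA
Of 1361 windows of 50 bases in *SER3*, 11 (0.8%) were also present in *SER33*, and the longest shared run was 56 bases, so that a read of that length from most of *SER3* matches *SER33* only with mismatches.

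The upstream sequences of the 3 genes called in at least 1 deletion strain are shown with each TATAAA, in either orientation, in capitals. Each window holds 250 bases before and 50 after the annotated start, read along the gene, at chrV:322436-322735 for *SER3*, chrV:321962-322261 for *SRG1* and the minus strand of chrIII:16831-17130 for *CHA1*:
SER3 upstream: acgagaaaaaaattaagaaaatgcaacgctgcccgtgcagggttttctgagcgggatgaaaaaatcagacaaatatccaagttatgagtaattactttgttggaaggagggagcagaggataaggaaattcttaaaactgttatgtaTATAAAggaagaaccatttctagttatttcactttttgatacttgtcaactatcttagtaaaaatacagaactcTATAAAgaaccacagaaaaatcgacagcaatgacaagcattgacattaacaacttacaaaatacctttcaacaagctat
SRG1 upstream: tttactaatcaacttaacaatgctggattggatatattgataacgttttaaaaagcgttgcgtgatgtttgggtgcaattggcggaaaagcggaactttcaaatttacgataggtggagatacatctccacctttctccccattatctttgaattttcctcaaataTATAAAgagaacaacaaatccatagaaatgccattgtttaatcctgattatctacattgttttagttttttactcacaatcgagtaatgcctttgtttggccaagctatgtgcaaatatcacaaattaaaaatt
CHA1 upstream: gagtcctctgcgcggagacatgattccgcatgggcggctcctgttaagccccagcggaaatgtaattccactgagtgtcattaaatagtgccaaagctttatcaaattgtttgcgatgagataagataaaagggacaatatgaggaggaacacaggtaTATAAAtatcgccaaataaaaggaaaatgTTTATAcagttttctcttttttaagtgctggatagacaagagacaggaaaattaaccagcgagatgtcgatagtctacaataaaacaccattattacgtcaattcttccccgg
*SER3* held 2 copies on its own strand, *SRG1* 1, and *CHA1* 1 on its own strand and 1 on the other. *CHA4* and *SER1* also held the letters, *SER33*, *SER2* and *GLY1* did not, and of 6001 windows of the same length 2714 (45.2%) did. A match here is a match of letters only.

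The libraries held 6903094 to 8947346 sense counts and 72664 to 106762 antisense counts over the rows of the tables. *JHD2* had 0, 0 and 2 counts in *jhd2Δ*, against 169 to 198 in WT. *SET1* had 33 to 46 counts in *set1Δ*, 35966 to 42631 with *SET1* overexpressed and 40284 to 42512 with *SET1-G990E* overexpressed, against 822 to 908 in WT. All values that follow are normalized counts, that is, counts scaled to a common effective library size, and a gene was called when its adjusted p (edgeR's quasi-likelihood test, Benjamini-Hochberg over 5619 sense transcripts) was under 0.05 and it differed by at least 1.5-fold.

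Among the 8 genes, 2 were called in *jhd2Δ*, *SER3* and *CHA1*, both lower, where 12.2% of all transcripts were called in either direction. In *set1Δ*, 3 were called, *SER3*, *SRG1* and *CHA1*, all lower, beside 8.58% of all transcripts. With *SET1* overexpressed, 0 were called, 4 had an unadjusted p under 0.05, and 7.69% of all transcripts were called. With *SET1-G990E* overexpressed, 0 were likewise called, with 4 at an unadjusted p under 0.05 and 12.0% of all transcripts called. DESeq2 also called 0 genes in either overexpression strain. Without the fold limit, 1 gene was higher and 4 lower in *jhd2Δ* (44.9% of all transcripts passed), 3 higher and 4 lower in *set1Δ* (42.3%), 2 higher and 1 lower with *SET1* overexpressed (34.8%), and 2 higher and 2 lower with *SET1-G990E* overexpressed (44.7%). All 4 strains share the same WT libraries, so their comparisons are not independent of each other.

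**Figure D1:**
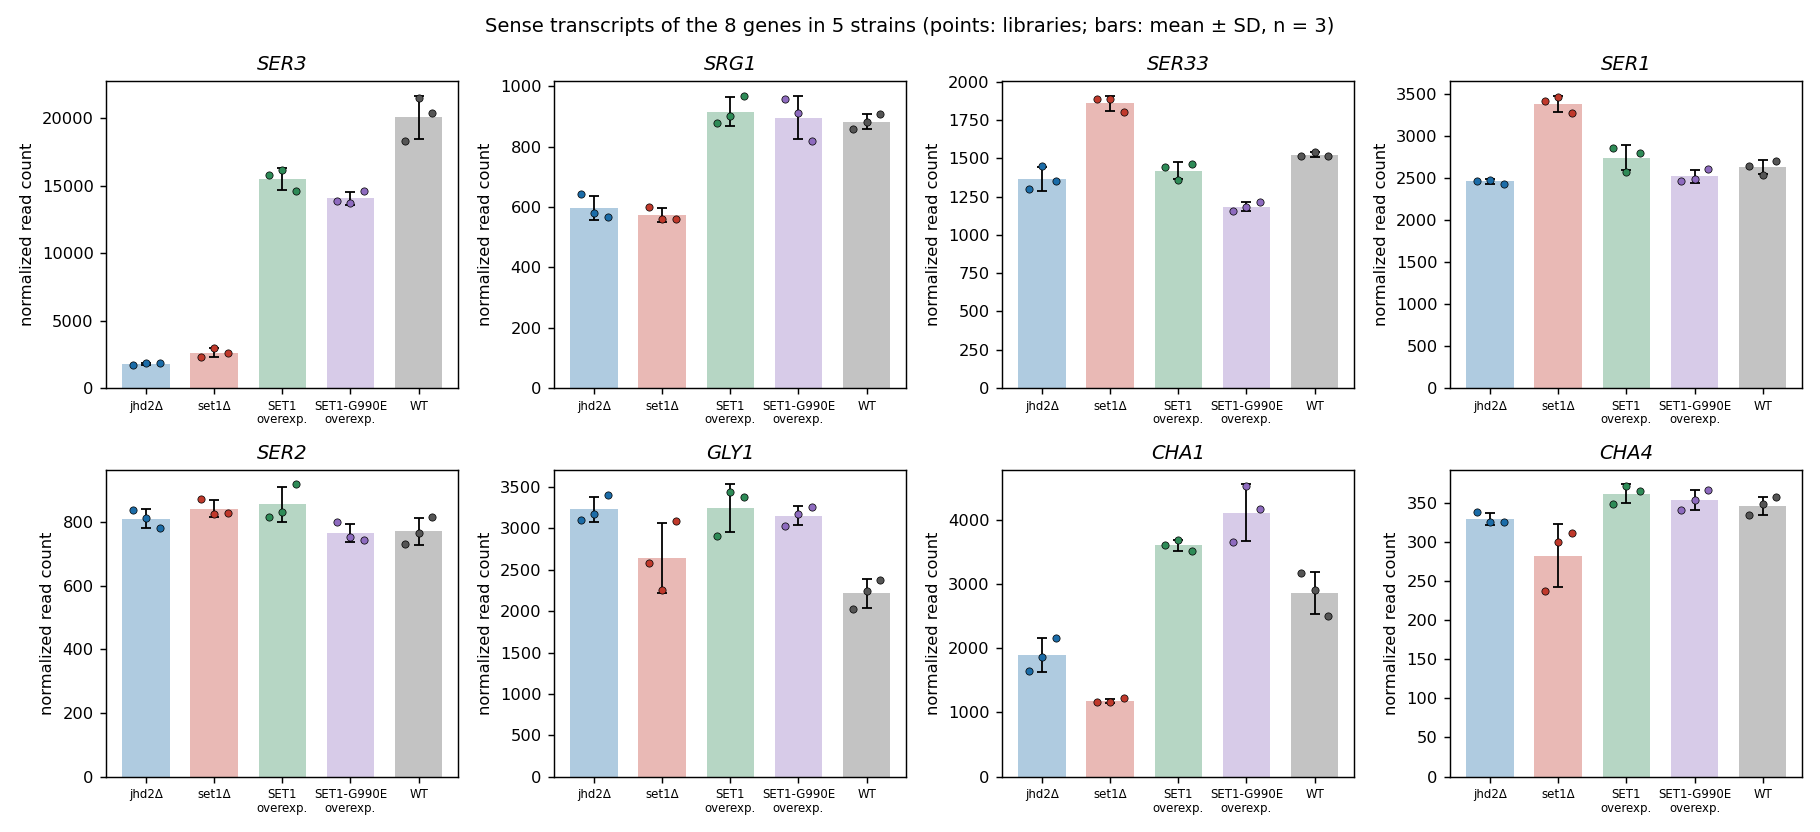
Normalized read counts (vertical axes, each from 0) of the 8 genes in the *jhd2Δ*, *set1Δ*, *SET1* overexpression, *SET1-G990E* overexpression and WT strains. Points are libraries and bars are means ± SD (n = 3). *SER3* averaged 1769 in *jhd2Δ* and 2611 in *set1Δ*, against 20081 in WT, while *SER2* stayed between 766 and 855 in all strains.

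*SER3* fell the most. Its 3 libraries gave 1664, 1830 and 1813 normalized counts in *jhd2Δ*, against 18337, 21526 and 20380 in WT. The *set1Δ* libraries gave 2294, 2966 and 2572. No library of either deletion came near a WT library. *SER3* was 11.3-fold lower in *jhd2Δ* (log2 fold change -3.50, SE 0.091, adjusted p = 4.4e-15, edgeR) and 7.69-fold lower in *set1Δ* (-2.94, SE 0.088, adjusted p = 2.0e-14). In each deletion strain only 1 of the 5619 transcripts tested had a lower log2 fold change, the deleted gene itself. *JHD2* averaged 0.64 normalized counts in *jhd2Δ*, against 174 in WT, and *SET1* 42.4 in *set1Δ*, against 834 in WT. The *SER3* values are averages over a culture, in which a lower level in every cell and a loss from some cells cannot be told apart.

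The overexpression strains kept most of their *SER3* RNA. With *SET1* overexpressed the libraries gave 15788, 16165 and 14610, and with *SET1-G990E* 13840, 13762 and 14591. Both sets lay below every WT library and far above every deletion library. The log2 fold changes were -0.37 (SE 0.081, adjusted p = 0.0015) and -0.51 (SE 0.081, adjusted p = 4.5e-05), below the 1.5-fold limit. The order of the strains was thus WT, *SET1* overexpression, *SET1-G990E* overexpression, *set1Δ* and *jhd2Δ*, and no neighbours in it overlapped, although the overexpression strains did not differ by the test (*SET1-G990E* over *SET1*, -0.14, adjusted p = 0.43).

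The deletions differed slightly in *SER3*. The *set1Δ* level was 1.48-fold that of *jhd2Δ* (log2 fold change 0.56, SE 0.085, adjusted p = 5.1e-05), with every *set1Δ* library above every *jhd2Δ* library, which was just under the fold limit. Without *jhd2Δ* replicate 2 or *set1Δ* replicate 1 it passed that limit, at 0.59 and 0.65.

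*SRG1* moved less. It had 643, 580 and 568 normalized counts in *jhd2Δ* and 600, 559 and 560 in *set1Δ*, against 858, 882 and 908 in WT. Both deletions lay wholly below WT and overlapped each other. The log2 fold change was -0.62 in *set1Δ* (SE 0.070, adjusted p = 2.1e-06, called) and -0.56 in *jhd2Δ* (SE 0.069, adjusted p = 2.4e-06, not called). The direct comparison of *set1Δ* with *jhd2Δ* gave -0.06 with a 95% interval of -0.20 to 0.08. Without *jhd2Δ* replicate 1 the *jhd2Δ* value passed the limit, at -0.62, and the *set1Δ* call was lost when the 1.5-fold limit itself was tested.

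Neither overexpression strain differed detectably from WT in *SRG1*. The libraries gave 878, 902 and 969 with *SET1* overexpressed and 959, 911 and 819 with *SET1-G990E* overexpressed, which overlapped WT. The 95% intervals of the log2 fold changes were -0.08 to 0.19 and -0.11 to 0.15. In these counts *SER3* was therefore lower than in WT while the *SRG1* row was not, and in no strain was that row called higher. The row also takes in bases of *SER3*, so a rise of *SRG1* itself could be hidden, as set out below.

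Set against each other within a library, *SER3* gave 2.59, 3.16 and 3.19 counts per *SRG1* count in *jhd2Δ* and 3.83, 5.31 and 4.59 in *set1Δ*, against 21.4, 24.4 and 22.5 in WT. With *SET1* overexpressed the ratio was 15.1 to 18.0 and with *SET1-G990E* 14.4 to 17.8, all below WT. Each of the 4 strains differed from WT with p = 0.1 by a two-sided exact permutation test, the smallest p that 3 libraries against 3 allow. The log2 ratio was lower by -2.94 in *jhd2Δ*, -2.32 in *set1Δ*, -0.42 with *SET1* and -0.53 with *SET1-G990E* overexpressed. Per kilobase of annotated length, *SER3* stood at 1255 ± 64.7 normalized counts in *jhd2Δ* and 1851 ± 239 in *set1Δ*, against 14242 ± 1146 in WT (SD, n = 3). *SRG1* stood at 1083 ± 73.4 in *jhd2Δ* and 1039 ± 42.4 in *set1Δ*, against 1601 ± 45.4 in WT, so that both RNAs were of like density in *jhd2Δ*. In WT, grown in rich medium, *SER3* thus far exceeded *SRG1* per kilobase. How far *SER3* was repressed there was not tested, as no culture in another medium was sequenced.

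**Figure D2:**
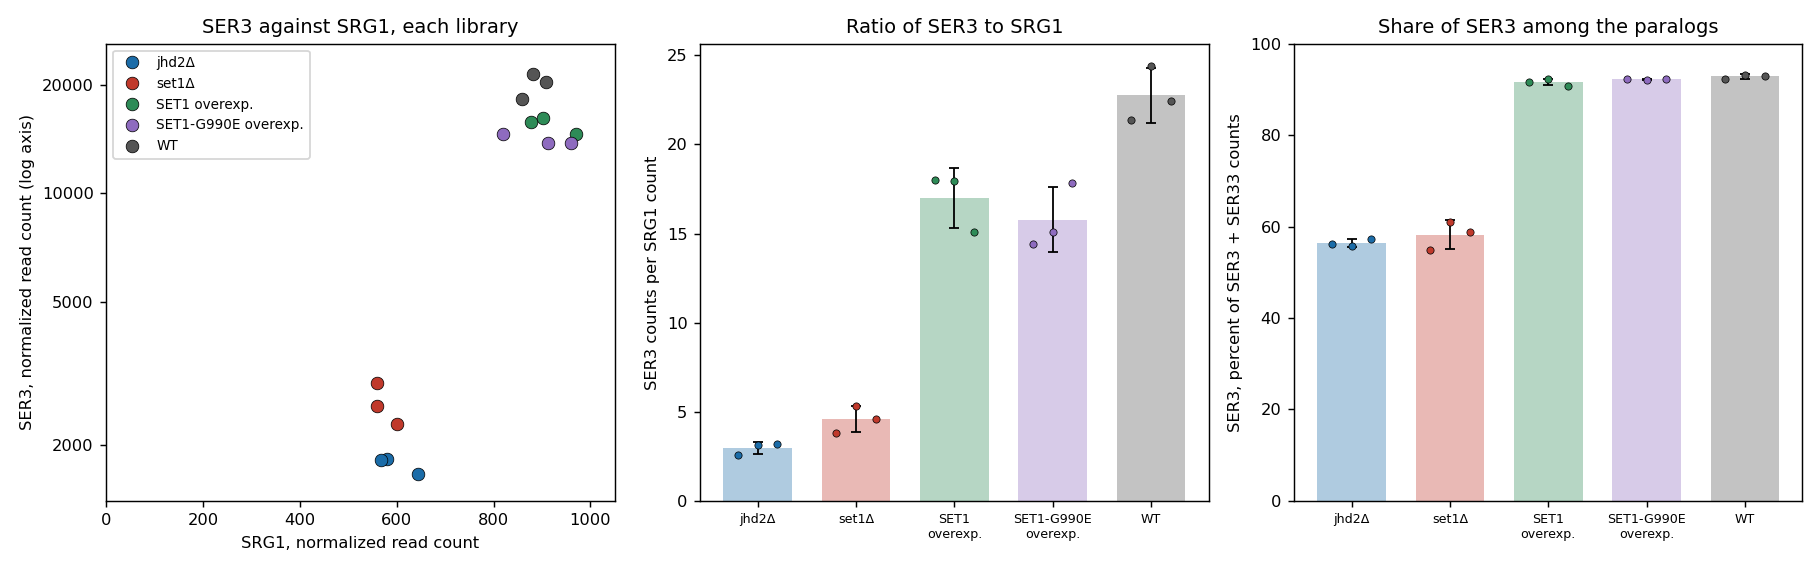
Left, *SER3* (vertical, log axis) against *SRG1* (horizontal), both in normalized read counts, one point per library, coloured by strain. Middle and right, the ratio of *SER3* to *SRG1* counts and the share of *SER3* in the summed counts of *SER3* and *SER33* (percent), as points for libraries and bars for means ± SD (n = 3) in *jhd2Δ*, *set1Δ*, both overexpression strains and WT. The ratio was 2.98 in *jhd2Δ* and 4.58 in *set1Δ*, against 22.8 in WT, and the share 56.4% and 58.2%, against 92.9%.

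The shared 77 bases bear on *SRG1*. If *SER3* reads were spread evenly, that stretch would hold 96.6 of them on average in *jhd2Δ* and 143 in *set1Δ*, against 1097 in WT. The WT figure is larger than the whole *SRG1* count there, 882, and coverage over the shared bases was not measured. The *SRG1* count differed from WT by -286 in *jhd2Δ* and -310 in *set1Δ*, and the even-coverage figure by -1000 and -954. With *SET1* and *SET1-G990E* overexpressed the even-coverage figure differed by -249 and -329, and *SRG1* by 33.9 and 14.0. In gene counts, a lower *SRG1* and fewer *SER3* reads entered under its row cannot be told apart. For the same reason a higher *SRG1* could be masked by fewer *SER3* reads in any of these strains, which was not tested.

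*SER33* lay far closer to WT than its paralog in the deletions, and in *set1Δ* it lay on the other side of WT. It had 1300, 1453 and 1350 normalized counts in *jhd2Δ*, against 1516, 1543 and 1513 in WT. In *set1Δ* it had 1888, 1890 and 1802, all above WT. The log2 fold changes were -0.16 (SE 0.053, adjusted p = 0.023) in *jhd2Δ* and 0.29 (SE 0.053, adjusted p = 3.0e-04) in *set1Δ*, neither past 1.5-fold. Over the fits without 1 library the adjusted p in *jhd2Δ* reached 0.10. The deletions differed from each other directly (*set1Δ* over *jhd2Δ*, 0.44, adjusted p = 4.5e-06), with no overlap. With *SET1-G990E* overexpressed *SER33* had 1156, 1180 and 1213, the lowest of any strain (-0.37, SE 0.053, adjusted p = 1.9e-05), and with *SET1* overexpressed 1359 to 1461 (-0.10, adjusted p = 0.16).

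The share of *SER3* in the summed *SER3* and *SER33* counts was 55.7% to 57.3% in *jhd2Δ* and 54.9% to 61.1% in *set1Δ*, against 92.4% to 93.3% in WT. It remained 90.9% to 92.2% with *SET1* and 92.1% to 92.3% with *SET1-G990E* overexpressed. Each strain lay wholly below WT (exact permutation p = 0.1, the smallest possible with 3 against 3), although for the overexpression strains the mean difference was only -1.33 and -0.68 percentage points. The sum itself was 3137 ± 161 in *jhd2Δ* and 4470 ± 347 in *set1Δ*, against 21605 ± 1627 in WT (SD, n = 3). In the deletions the RNAs of both paralogs were thus of the same order, whereas in the other strains *SER3* made up over 90% of the sum.

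The later steps of synthesis changed little. *SER1*, the transaminase, had 3415, 3465 and 3276 normalized counts in *set1Δ*, against 2650, 2536 and 2706 in WT, with no overlap (log2 fold change 0.36, SE 0.053, adjusted p = 3.3e-05, not called). In *jhd2Δ* it had 2471, 2480 and 2432 (-0.10, adjusted p = 0.15). The *set1Δ* level was 1.38-fold that of *jhd2Δ* (0.46, SE 0.053, adjusted p = 3.1e-06), also under the limit. The overexpression strains overlapped WT (0.06 and -0.06, adjusted p = 0.41 and 0.38).

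*SER2*, the phosphatase, ran from 730 to 919 over all 15 libraries. None of its 4 comparisons with WT passed an adjusted p of 0.05, and the 95% intervals of the log2 fold changes were -0.05 to 0.19 in *jhd2Δ*, 0.01 to 0.25 in *set1Δ*, 0.03 to 0.27 with *SET1* and -0.13 to 0.11 with *SET1-G990E* overexpressed. All *set1Δ* libraries lay above WT, as did, by less than 1 normalized count, those with *SET1* overexpressed, and in the order of the levels every pair of neighbouring strains overlapped. *SER33*, *SER1* and *SER2* therefore stayed within 1.5-fold of WT in all 4 strains, whereas *SER3* did not in the deletions.

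*CHA1* (YCL064C, chromosome III, 15798 to 16880, minus strand) fell in both deletions. It had 1649, 1867 and 2166 normalized counts in *jhd2Δ*, against 3167, 2903 and 2511 in WT. In *set1Δ* it had 1170, 1158 and 1218. The 3 strains did not overlap. *CHA1* was 2.42-fold lower in *set1Δ* (log2 fold change -1.27, SE 0.097, adjusted p = 3.3e-08) and 1.51-fold lower in *jhd2Δ* (-0.59, SE 0.095, adjusted p = 4.8e-05). In *set1Δ* only 10 transcripts had a lower log2 fold change, the deleted *SET1* and *SER3* among them.

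The *jhd2Δ* call of *CHA1* rested on the fold limit. Leaving out *jhd2Δ* replicate 1 or 2, *SET1* overexpression replicate 2, *SET1-G990E* overexpression replicate 2, or WT replicate 1 or 2 ended it, as did fitting only the 6 libraries compared (-0.58). Over the 15 fits without 1 library the log2 fold change ran from -0.70 to -0.50, with an adjusted p of at most 4.9e-04.

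*CHA1* was the 1 gene of the 8 called between the deletions, where 8.31% of all transcripts were called. It was 1.60-fold lower in *set1Δ* than in *jhd2Δ* (log2 fold change -0.68, SE 0.098, adjusted p = 3.0e-05). Without *jhd2Δ* replicate 3 that difference was -0.57 and no longer called. At any fold, 3 of the 8 were higher and 3 lower in *set1Δ* than in *jhd2Δ*, beside 40.2% of all transcripts. *SER3* and *CHA1* thus ranked the deletions in opposite order: *jhd2Δ* held the lower *SER3* and *set1Δ* the lower *CHA1*.

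With the transgenes *CHA1* was higher than in WT. It had 3656, 4531 and 4166 normalized counts with *SET1-G990E* overexpressed (log2 fold change 0.53, SE 0.093, adjusted p = 1.5e-04) and 3609, 3696 and 3522 with *SET1* overexpressed (0.34, SE 0.093, adjusted p = 0.0089). All 6 libraries lay above every WT library, and neither difference reached 1.5-fold. Without *SET1-G990E* replicate 1 or WT replicate 1 the *SET1-G990E* value was called, at 0.60 and 0.61. *CHA1* therefore stood on opposite sides of WT in the deletion and overexpression strains, whereas *SER3* stood below WT in all 4. Between the overexpression strains 0 of the 8 genes were called, 3 had an unadjusted p under 0.05, DESeq2 called 0, and 0.231% of all transcripts were called. At any fold only *SER33* passed there, lower with *SET1-G990E* (-0.26, adjusted p = 0.017), beside 1.67% of all transcripts. Over the fits without 1 library the adjusted p of that *SER33* difference reached 0.11.

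*CHA4* (YLR098C, chromosome XII, 337527 to 339473, minus strand), which encodes the activator of *CHA1*, had 237, 299 and 311 normalized counts in *set1Δ*, against 334, 348 and 357 in WT. The groups did not overlap, but the difference was small (log2 fold change -0.29, SE 0.085, adjusted p = 0.0100) and not called. The lowest library, *set1Δ* replicate 1, weighed on it, and without that library the value was -0.18 (adjusted p = 0.070). In *jhd2Δ* *CHA4* had 325 to 337 and overlapped WT (-0.07, adjusted p = 0.50). Both overexpression strains overlapped WT as well.

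*GLY1* (YEL046C, chromosome V, 67629 to 68792, minus strand), the threonine aldolase gene, lay above WT in all 4 strains at an adjusted p under 0.05, in *set1Δ* only narrowly. It had 3108, 3178 and 3405 normalized counts in *jhd2Δ*, against 2022, 2246 and 2377 in WT, without overlap (log2 fold change 0.54, SE 0.093, adjusted p = 1.0e-04). With *SET1* overexpressed it had 2915 to 3438 (0.55, adjusted p = 1.4e-04) and with *SET1-G990E* 3030 to 3259 (0.51, adjusted p = 2.0e-04). In *set1Δ* the libraries spread from 2252 to 3093 and overlapped WT (0.25, SE 0.094, adjusted p = 0.036). That value passed in neither the fit of only these 2 strains (adjusted p = 0.086) nor without *set1Δ* replicate 1 or 3 or WT replicate 1 or 2, and was 0.13 (adjusted p = 0.26) without *set1Δ* replicate 3. None reached 1.5-fold. Without WT replicate 3 the *jhd2Δ* and *SET1* overexpression values passed that limit, at 0.61 and 0.62, and without *SET1* overexpression replicate 1 the *SET1* overexpression value was also 0.62.

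**Figure D3:**
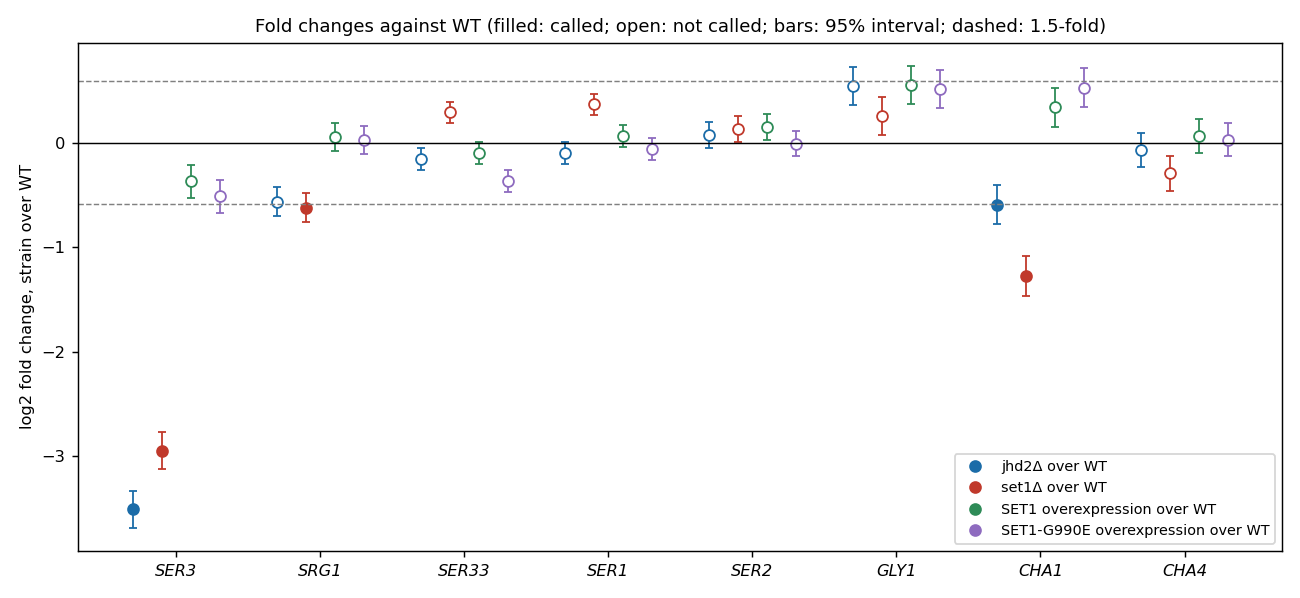
Log2 fold changes over WT (vertical axis) of the 8 genes in *jhd2Δ*, *set1Δ*, *SET1* overexpression and *SET1-G990E* overexpression strains, with 95% intervals. Filled points were called, open points were not, and dashed lines mark 1.5-fold. *SER3* lay at -3.50 and -2.94 in the deletions, and *GLY1* lay between 0.25 and 0.55 in all 4 strains.

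Antisense reads over the 8 genes were few. *SER3*, *SRG1* and *CHA1* had no antisense row and stood in the deposited list of transcripts with fewer than 10 counts, so no antisense value or test could be given for them. Of the 5 others, *SER1* and *SER2* did not pass the filter on low counts and *SER33*, *CHA4* and *GLY1* did. None of the 3 was called in any comparison with WT by edgeR, where 6.21% of antisense transcripts were called in *jhd2Δ*, 12.4% in *set1Δ*, 3.52% with *SET1* and 6.74% with *SET1-G990E* overexpressed. 1 had an unadjusted p under 0.05 in each deletion, *GLY1*, with 14 antisense counts over the *jhd2Δ* libraries and 11 over the *set1Δ* libraries, against 33 in WT (log2 fold changes -1.09 and -1.10, adjusted p = 0.17 and 0.16). Every deletion library had fewer than 10 of these counts, the filter's minimum, so the row passed only through other strains. DESeq2 called 0. *CHA4* had the most antisense reads relative to sense, 8.41 ± 2.41 per 100 sense counts in *jhd2Δ* and 8.65 ± 1.13 in *set1Δ*, against 9.86 ± 0.77 in WT (SD, n = 3).

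Of the genes beside *SER3*, *UTP7* was called higher in *jhd2Δ*. It encodes a protein of the small ribosomal subunit processome and ends 177 bases beyond the end of *SER3* on the opposite strand, so that both genes are transcribed toward each other. Its sense RNA had 1548, 1516 and 1485 normalized counts in *jhd2Δ*, against 979, 868 and 911 in WT (log2 fold change 0.72, SE 0.068, adjusted p = 1.2e-07, called). It was also above WT without overlap in *set1Δ* (0.51), with *SET1* (0.45) and with *SET1-G990E* overexpressed (0.58), none of which was called. The *SET1-G990E* value was called at 0.59 when only the 2 strains were fitted and at 0.59 to 0.62 without *SET1-G990E* replicate 1 or 3, WT replicate 1 or 3, *SET1* overexpression replicate 2 or *set1Δ* replicate 3, and the *jhd2Δ* call was lost when the 1.5-fold limit itself was tested (adjusted p = 0.13). The read counts on the strand of *SER3* across *UTP7* went the other way. They were 7.25, 7.00 and 3.01 in *jhd2Δ* and 4.00, 5.13 and 2.48 in *set1Δ*, against 18.8, 22.6 and 9.02 in WT (log2 fold changes -1.52 and -2.08, adjusted p = 0.0056 and 4.5e-04). Every deletion library lay under the low-count filter's minimum of 10, so the row was tested only because other strains held more. Lower values in the deletions were thus in part fixed by that filter.

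With *SET1-G990E* overexpressed this antisense count was 6.65, 4.88 and 11.6, overlapping WT (-1.13, adjusted p = 0.026), and with *SET1* overexpressed 15.8, 15.2 and 8.57 (not called). The *jhd2Δ* call was lost without *jhd2Δ* replicate 3 or WT replicate 2 (adjusted p = 0.077 and 0.095), and the *SET1-G990E* call without *SET1-G990E* replicate 1 or 2 or WT replicate 1 or 2. The *set1Δ* call held in all 15 such fits (adjusted p of at most 0.013). These used the same filter, so they could not test what the filter itself had fixed. Whether these reads and those of *SER3* come from the same RNA was not tested. *AIM9* and *GET2*, the other genes within 3 kb, and *VAC17* and *MRC1* beside *CHA1*, were not called on the sense strand in any strain. On the antisense strand *MRC1* was called lower in *jhd2Δ* (-1.43, adjusted p = 0.034), a call lost without any 1 of the 6 libraries compared. Its *jhd2Δ* libraries likewise all lay under the filter's minimum of 10.

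Around the pathway, 6 groups of genes were read, each count of calls beside the 12.2% of all transcripts called in *jhd2Δ*, 8.58% in *set1Δ*, 7.69% with *SET1* and 12.0% with *SET1-G990E* overexpressed. The groups hold 5 to 8 genes each, so that 1 or 2 calls are read as values of single genes. When the 1.5-fold limit itself was tested, *GCV2* in *set1Δ* stayed called, and the calls against WT of *SHM2*, *AGX1*, *GNP1*, *ENO1* and *SPT2* and that of *GCV2* with *SET1-G990E* overexpressed were lost. Of 8 genes that use serine, *SHM2*, for the cytosolic serine hydroxymethyltransferase that turns serine into glycine, was called lower in *jhd2Δ* (log2 fold change -0.68, adjusted p = 1.6e-06) and with *SET1-G990E* overexpressed (-0.74, adjusted p = 6.9e-07), and in *set1Δ* and with *SET1* overexpressed 0 were called by edgeR or DESeq2, with 3 and 2 at an unadjusted p under 0.05 by edgeR. *SHM2* was called higher in *set1Δ* than in *jhd2Δ* (0.99, adjusted p = 5.9e-08). Medians over the 8 ran from -0.08 to -0.02 against WT, beside -0.01 to 0.00 over all transcripts.

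Of 5 genes of glycine supply and cleavage, 2 were called higher in *set1Δ*. *GCV2*, for the P protein of the glycine cleavage system, had a mean of 2311 normalized counts, against 1151 in WT (1.01, SE 0.083, adjusted p = 6.7e-08), and *AGX1*, which makes glycine from glyoxylate, 144, against 76.7 in WT (0.90, SE 0.158, adjusted p = 1.9e-04). The median of the 5 was 0.56 in *set1Δ*, beside 0.00 over all transcripts, and -0.07 in *jhd2Δ*, -0.20 with *SET1* and -0.24 with *SET1-G990E* overexpressed. *GCV2* was called lower with *SET1-G990E* overexpressed (-0.69, adjusted p = 2.9e-06), but not without *SET1-G990E* replicate 2 (-0.58). *GCV1*, *GCV2* and *AGX1* were called higher in *set1Δ* than in *jhd2Δ*, at 0.79, 1.07 and 0.86. When the 1.5-fold limit itself was tested, the *GCV1* and *AGX1* calls between the deletions were lost (adjusted p = 0.13 and 0.34).

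Of 6 genes of the threonine path, 0 were called in any strain by edgeR or DESeq2, 1 to 4 per strain had an unadjusted p under 0.05 by edgeR, and the medians ran from -0.18 to -0.00. Threonine is a substrate of Gly1 and Cha1, and the path as read here includes *ILV1*, whose enzyme also uses threonine. Of 5 permeases that carry serine, *GNP1* was called higher in *jhd2Δ* (0.64, adjusted p = 2.4e-06, and 0.58 and not called without *jhd2Δ* replicate 3) and with *SET1-G990E* overexpressed (0.72, adjusted p = 5.7e-07). *AGP1*, an amino acid permease gene named after its values were seen, lay the other way, at 590 in *jhd2Δ* and 591 with *SET1-G990E* overexpressed, against 879 in WT (-0.58 and -0.57, adjusted p = 5.6e-04 and 5.7e-04, not called). It was called in *jhd2Δ* without *jhd2Δ* replicate 2 or 3 or WT replicate 1 (-0.68 to -0.62), and with *SET1-G990E* without its replicate 3 or WT replicate 1 (-0.63 and -0.68). The medians of the 5 permeases ran from -0.37 to -0.04. In *set1Δ* *GNP1* lay below WT (-0.31, adjusted p = 0.0057, not called). Between the deletions, where genes were named after their values were seen, *AGP1* and *GAP1* were called higher and *GNP1* and *DIP5* lower in *set1Δ*, at 0.94, 0.62, -0.95 and -0.62. The *GAP1* call was lost without *jhd2Δ* replicate 1 or *set1Δ* replicate 2, and the *DIP5* call without *jhd2Δ* replicate 2, at 0.58, 0.57 and -0.51. The *GAP1* and *DIP5* calls were also lost when the 1.5-fold limit itself was tested.

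Around 3-phosphoglycerate, 4 of 5 glycolytic genes had a row in the sense table. *ENO1*, an enolase gene, was called lower with *SET1-G990E* overexpressed (-0.68, adjusted p = 9.8e-06, and -0.57 and not called without WT replicate 2), where it averaged 11700, against 18732 in WT. It was about as low in *jhd2Δ* at 13022 (-0.52, adjusted p = 1.5e-04) and with *SET1* overexpressed at 12632 (-0.57, adjusted p = 1.1e-04), just under the limit, and passed it without WT replicate 1 in both and without *SET1* overexpression replicate 1 or 2 (-0.64 to -0.59). The other 3 were not called in any strain, and the medians of the 4 ran from -0.19 to 0.06. Of 8 factors known to act at *SER3* and *SRG1* (SWI/SNF, Spt6, FACT, Spt2, Paf1 and SAGA subunits), *SPT2*, which encodes a chromatin factor of transcribed genes, was called higher in *jhd2Δ* (590, against 355 in WT, 0.73, adjusted p = 4.6e-07) and in *set1Δ* (541, 0.61, adjusted p = 1.1e-05). The *set1Δ* call was lost without *set1Δ* replicate 2 or WT replicate 2 (0.57 in both). The other 7 were not called, and the medians ran from -0.02 to 0.08.

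**Figure D4:**
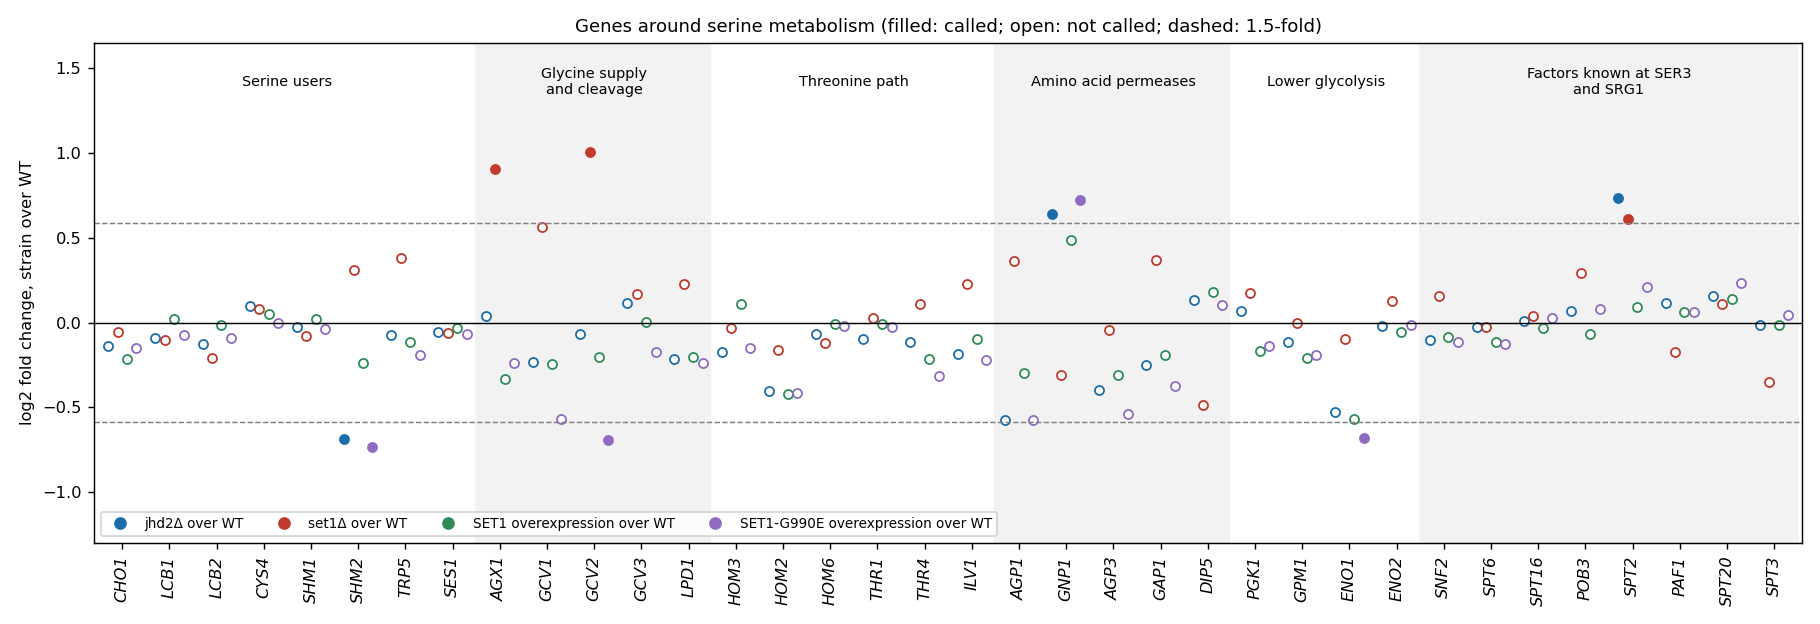
Log2 fold changes over WT (vertical axis) of the genes of the 6 groups in *jhd2Δ*, *set1Δ*, *SET1* overexpression and *SET1-G990E* overexpression strains. Filled points were called, open points were not, and dashed lines mark 1.5-fold. *GCV2* lay at 1.01 in *set1Δ*, and *SPT2* at 0.73 in *jhd2Δ* and 0.61 in *set1Δ*.

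Across the 15 libraries, the genes whose log2 levels were most alike to *SER3* were *CAR1* (arginase, r = 0.975), *DLD1* (D-lactate dehydrogenase, 0.960), the small nucleolar RNA *SNR77* (0.945), *SRG1* (0.941) and *TSA1* (peroxiredoxin, 0.935). Their log2 fold changes in *jhd2Δ* were far smaller than that of *SER3*, at -1.20, -0.77, -0.95, -0.56 and -0.80. For *CHA1* they were *RRT5* (0.953), *ELO1* (fatty acid elongase, 0.941), *KAR2* (ER chaperone, 0.939), *ECM3* (0.935) and *STE2* (alpha-factor receptor, 0.934). *RRT5* came nearest to the *CHA1* pattern, with -1.25 in *set1Δ* and 0.50 with *SET1-G990E* overexpressed. For *SER33* they were *ADE1* (purine synthesis, 0.958), *MET10* (sulfite reductase, 0.955), *UBR1* (ubiquitin ligase, 0.950), *GCV2* (0.950) and *COP1* (coatomer, 0.947). The *SRG1* row shares 77 bases with *SER3*, so its correlation with *SER3* may come in part from shared reads. All are Pearson correlations given as descriptions. The 15 libraries come from 5 strains and so are not 15 independent points.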

How the data were processed

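Total RNA was depleted of ribosomal RNA and sequenced as strand-specific libraries from 3 cultures of each strain. Reads had been aligned by the authors to R64/sacCer3 with Novoalign 2.8.1, a version taken from the submitters' notes to GEO, and counted per transcript with USeq. The deposited sense and antisense tables hold raw read counts, FPKM values and regularized log2 values per library that the authors computed, and columns of the authors' own comparisons (log2 ratios and adjusted p-values), which were not used. FPKM and log2 columns were not used either. The kit is named differently in the labels (stranded total RNA) and in the study's methods.

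Counts were analysed as deposited with edgeR 4.0.16 (R 4.3.3): TMM scaling, filterByExpr with a minimum count of 10, and the quasi-likelihood test in 1 fit of all 15 libraries with 1 mean per strain, on each strand, with Benjamini-Hochberg adjustment over the 5619 sense or 2640 antisense transcripts that passed the filter. A call needed an adjusted p under 0.05 and a 1.5-fold difference, the limits of the study's methods. Ratios between genes were compared by an exact permutation test (scipy 1.17.1). Alternatives were DESeq2 1.42.0, median-of-ratios factors, no filter, a filter of 50 counts in 3 libraries, fits of only the 2 strains compared, a replicate block, a test of the 1.5-fold limit itself, antisense counts scaled by the sense libraries, and each library left out. Intervals of 95% were taken from the SE by the normal quantile. They and the p-values cover the spread between cultures of 1 strain each. No library pair within a strain differed as little as sampling noise would allow.

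The 8 genes and the groups around them were chosen with earlier results of these data known. Named beyond the 8 were called genes of the groups, genes within 3 kb of *SER3* and *CHA1*, and the 5 transcripts most alike to *SER3*, *CHA1* and *SER33* by Pearson correlation of log2 CPM (prior count 2). Sequences came from the NCBI RefSeq R64 genome: of 5604 rows matched by locus tag, 5585 (99.7%) had the same coordinates in both.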

Additional observations from a re-analysis of the deposited data

How the results depend on the processing

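In the alternatives run, *SER3* stayed called and lower in both deletions, at -3.57 to -3.44 in *jhd2Δ* and -3.04 to -2.86 in *set1Δ* over the fits without 1 library, and *CHA1* stayed called in *set1Δ* (-1.35 to -1.20). *CHA1* in *jhd2Δ* was not called with only the 2 strains fitted (-0.58) or when the 1.5-fold limit itself was tested (-0.59), and ran from -0.70 to -0.50 without 1 library, which left 1 gene called in that strain in both settings and 1 to 3 without 1 library. *SRG1* in *set1Δ* (-0.62) and *CHA1* between the deletions (-0.68) were not called by the test of the limit, which left 0 genes called between the deletions, and 0 to 2 without 1 library. Without 1 library, *SRG1* ran from -0.62 to -0.53 in *jhd2Δ* and from -0.028 to 0.084 with *SET1-G990E* overexpressed, *CHA1* with *SET1-G990E* from 0.46 to 0.61, and 0 to 1 genes were called in each overexpression strain. The test of the limit called 272 transcripts in *jhd2Δ* (686 by the main test), 107 in *set1Δ* (482), 143 with *SET1* (432), 285 with *SET1-G990E* (673), 124 between the deletions (467) and 0 between the overexpression strains (13, and 7 or 6 without *SET1* replicate 1 or *SET1-G990E* replicate 2).

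Replicate numbers do not pair the cultures by label, and same-numbered libraries correlated over 0.1 in 16 of 30 pairs (-0.23 to 0.34). With a replicate block, *SER3* was at -3.50 and -2.95 and *CHA1* at -0.60 and -1.28 in *jhd2Δ* and *set1Δ*, and the block left 2 and 3 genes called as before and changed no other call among the 8. Antisense calls over all transcripts moved more: DESeq2 called 75 in *jhd2Δ* (164 by edgeR), 168 in *set1Δ* (328), 41 with *SET1* (93) and 93 with *SET1-G990E* (178), the filter of 50 counts left 62, 86, 43 and 66 of 416 tested, and the test of the limit 17, 64, 9 and 26. The *SET1* count was 58, 53 and 61 without *SET1* replicate 1 or 3 or WT replicate 2. *GLY1*, *SER1* and *SER2* had few antisense reads in any library. With 3 cultures per strain no ratio could reach p under 0.1.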
